A study of Mus musculus with 24 samples.

Results

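Open chromatin of Utx knockout (KO) blood progenitors was compared between cells given a guide RNA (gRNA) against Smarca4 and cells given an empty gRNA construct. The comparison took every library that the labels place in these groups of 1 ATAC set, which made 4 of the 24 samples of the series. The cells came from the lineage-negative fraction of C57BL/6 bone marrow, and all 4 libraries carried the Utx KO genotype together with Cas9. The Smarca4 gRNA group had 2 libraries, both with the Smarca4 guide numbered 2, and the empty group had 2 libraries. A culture protocol for this editing of Brg1 stands in the labels of another ATAC set of the series. It gives 7 days in M3434 semi-solid medium, 5 days of liquid culture and ATAC-seq 6 days after transduction, with the empty construct as control. The 4 libraries of the same design in Utx wild-type (WT) cells, 2 with Smarca4 gRNA and 2 empty, serve as separate material, and PU.1 and H3K4me1 islands of Utx KO cells serve as other readouts. The labels do not say whether replicates came from separate mice or cultures, so the p-values below measure the spread between these samples, which may be technical.

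Smarca4 encodes Brg1, an ATPase of the BAF (SWI/SNF) complex, which slides or evicts nucleosomes and so keeps enhancers accessible. Smarca2 encodes Brm, the alternative ATPase of the same complex. Utx, encoded by the X-linked gene Kdm6a, is a histone H3K27 demethylase and a subunit of the MLL3/MLL4 complexes, which place H3K4me1 at enhancers. In blood progenitors PU.1 (Spi1), a factor of the ETS family that binds around a GGAA core, and GATA factors occupy many of these enhancers. ATAC-seq cuts accessible DNA with a transposase, and each library's list holds the start and end of its peaks only, so presence and width were the measures at hand.

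Overlapping or adjoining peaks of the 4 libraries were joined into 47537 regions. Lost regions had a peak in both empty libraries and in neither Smarca4 gRNA library. Gained regions had a peak in both Smarca4 gRNA libraries and in neither empty library, and kept regions had a peak in each of the 4. By this rule 4022 regions were lost, 135 were gained and 26176 were kept, and the other 17204 were held by a mixed set of libraries. The lost regions were 8.46% of all regions and 11.2% of the 36033 held by both empty libraries. The gained regions were 0.284% of all regions and 0.506% of the 26700 held by both Smarca4 gRNA libraries.

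Few of these changes lay at promoters, so the promoters that did change are shown first. The listed start of 59 coding genes fell inside a lost region, that of 9 inside a gained region and that of 8934 inside a kept region. The sequences run from 250 bases before to 50 bases after the start, from RefSeq on GRCm38.p6, for the 2 lost and the 2 gained regions that were widest in the libraries holding them. Capitals mark the ETS core, GGAA or its complement TTCC.
Mmp23, chr4:155653335-155653634, minus strand, lost: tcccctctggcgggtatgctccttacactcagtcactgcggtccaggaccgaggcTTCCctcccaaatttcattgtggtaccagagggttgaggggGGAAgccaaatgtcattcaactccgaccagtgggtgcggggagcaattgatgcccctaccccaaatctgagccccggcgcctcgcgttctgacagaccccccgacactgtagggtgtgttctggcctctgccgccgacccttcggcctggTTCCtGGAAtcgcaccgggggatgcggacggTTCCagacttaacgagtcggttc
Glt28d2, chr3:85887469-85887768, minus strand, lost: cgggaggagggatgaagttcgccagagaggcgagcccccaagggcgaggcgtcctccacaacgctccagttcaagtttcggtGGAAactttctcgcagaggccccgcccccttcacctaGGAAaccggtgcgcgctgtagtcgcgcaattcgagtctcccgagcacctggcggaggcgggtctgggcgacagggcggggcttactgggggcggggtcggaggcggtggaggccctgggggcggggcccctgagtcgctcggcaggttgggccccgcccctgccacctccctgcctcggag
Gucy1a1, chr3:82145601-82145900, minus strand, gained: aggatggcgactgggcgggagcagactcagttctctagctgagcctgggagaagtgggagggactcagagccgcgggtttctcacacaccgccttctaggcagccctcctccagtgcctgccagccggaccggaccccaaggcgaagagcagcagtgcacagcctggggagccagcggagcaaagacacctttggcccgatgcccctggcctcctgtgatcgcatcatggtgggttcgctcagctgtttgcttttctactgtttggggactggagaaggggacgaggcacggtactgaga
Pabpc4l, chr3:46447892-46448191, minus strand, gained: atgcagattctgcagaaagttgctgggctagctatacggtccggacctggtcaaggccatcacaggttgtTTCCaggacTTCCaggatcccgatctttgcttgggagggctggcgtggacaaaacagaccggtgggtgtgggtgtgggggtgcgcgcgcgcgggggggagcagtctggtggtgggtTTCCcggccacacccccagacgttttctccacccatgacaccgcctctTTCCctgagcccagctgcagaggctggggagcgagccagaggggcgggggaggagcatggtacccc

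The Mmp23 promoter, of a matrix metalloproteinase gene, had no peak in either Smarca4 gRNA library and peaks of 585 and 679 bp in the empty libraries. The same region was open in all 4 Utx WT libraries, with 764 and 796 bp covered under Smarca4 gRNA and 796 bp in each empty library. The Glt28d2 promoter was also closed in both Smarca4 gRNA libraries, against peaks of 585 and 509 bp in the empty libraries. In Utx WT cells 0 bp of it were covered in either Smarca4 gRNA library, against 0 and 60 bp in the empty libraries. The Gucy1a1 promoter, of a soluble guanylate cyclase subunit, was open over 367 and 1120 bp in the Smarca4 gRNA libraries and had no peak in the empty libraries. In Utx WT cells 0 and 204 bp of it were covered under Smarca4 gRNA, against 384 and 0 bp in the empty libraries. The Pabpc4l promoter, of a poly(A)-binding protein family member, had 259 and 837 bp in the Smarca4 gRNA libraries and none in the empty libraries, and no Utx WT library had a peak there. Mmp23 was thus open in every Utx WT library, and the Glt28d2 and Pabpc4l regions were nearly or wholly without peaks in Utx WT cells.

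ETS cores were common in every class of promoter. GGAA on either strand was found in 96.7% of 61 lost promoters (59 genes, some with more than 1 listed start), 80% of 10 gained, 95.2% of 10394 kept and 95.7% of all 21263 promoter windows. GAGGAAG, a PU.1-type site that contains the core, was found in 16.4% of lost, 20% of gained, 12.97% of kept and 13.6% of all promoters. AGATAA, bound by GATA factors, was found in 6.56% of lost, 10% of gained, 5.42% of kept and 9.65% of all promoters. GGGCGG, an SP/KLF site, was found in 57.4% of lost, 80% of gained, 69.8% of kept and 46.2% of all promoters. The median promoter had 11 CpG dinucleotides where lost, 17 where gained, 23 where kept and 13 over all. A match of letters is not evidence of binding, and no motif share was tested.

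The Smarca4 gRNA libraries had fewer peaks, less covered sequence and a larger share of peaks at gene starts. They held 35975 and 29930 peaks, against 40477 and 41024 in the empty libraries. The mean was 32952.5 ± 4274 under Smarca4 gRNA and 40750.5 ± 387 in empty cells (SD, n = 2 each), a difference of -7798 peaks or -19.1%. Covered sequence came to 23.9 and 19.5 Mb under Smarca4 gRNA, against 25.8 and 25.6 Mb in empty cells. The groups did not overlap in either measure, and Smarca4 gRNA replicate 2 was the lowest of the 4 in both. Peaks within 1 kb of a gene start made up 34.4 and 39.1% of the Smarca4 gRNA lists, against 30.9 and 30.6% of the empty lists. The median peak was 499 and 511 bp wide under Smarca4 gRNA, against 477 and 471 bp in empty cells. Peaks of 200 to under 300 bp numbered 7498 and 6160 under Smarca4 gRNA, against 8572 and 9069 in empty cells. At equal list length, described below, the difference at gene starts came to 0.673 percentage points, against 5.99 in whole lists, covered length differed by -1.93 Mb, against -4.01 Mb, and the median width difference turned to -61 bp. Without Smarca4 gRNA replicate 2 the differences were -4775.5 peaks, -1.83 Mb and 3.62 points at gene starts. Each of the differences in whole lists had p = 0.333 by a two-sided exact permutation test, the smallest p that 2 against 2 allows. Read depth is unknown from such lists, and its part in their length was not tested.

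**Figure D1:**
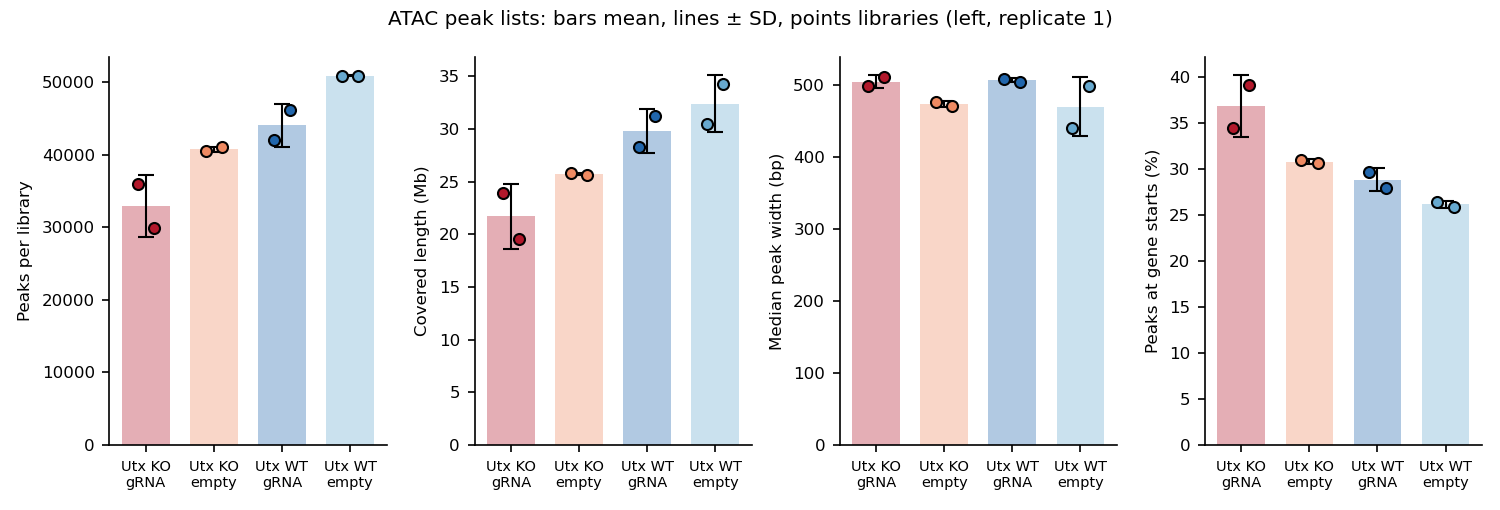
Peaks, covered length in Mb, median peak width in bp and the percentage of peaks at gene starts for each library, by Utx genotype and guide; bars are means, lines ± SD and points the 2 libraries. The Smarca4 gRNA libraries of Utx KO cells held 35975 and 29930 peaks, against 40477 and 41024 in the empty libraries, and the Utx WT libraries show fewer peaks under Smarca4 gRNA too.

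The libraries still shared most of their open sequence. The base-pair overlap of lists, as the Jaccard index, was 0.713 between the Smarca4 gRNA libraries and 0.790 between the empty libraries. Smarca4 gRNA replicate 1 overlapped the empty libraries by 0.757 and 0.754, more than it overlapped replicate 2. Replicate 2 overlapped the empty libraries by 0.667 and 0.669, the lowest values among the 4 libraries. Of the regions held by both empty libraries, 5437 were missing from Smarca4 gRNA replicate 2 alone and 398 from replicate 1 alone. Without Smarca4 gRNA replicate 1, 9503 regions would be lost and 1844 gained. Without Smarca4 gRNA replicate 2, 4420 would be lost and 1677 gained. Leaving out an empty library gave 7128 and 6726 lost regions, and 319 and 347 gained ones. A rule over fewer libraries is met more often by construction.

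The cells were checked against marker genes by peaks at gene starts. Of 8 progenitor markers, 8 and 7 were open in the Smarca4 gRNA libraries, against 8 in each empty library, and Flt3, a receptor of early progenitors, was the one without a peak in Smarca4 gRNA replicate 2. All 5 mast cell and basophil markers (Cpa3, Ms4a2, Fcer1a, Mitf and Hdc) were open in each of the 4 libraries. The granulocyte genes Mpo, Elane, Prtn3 and Ltf had no peak at their start in any of the 4. Of 6 granulocyte markers, 1 and 0 were open under Smarca4 gRNA, against 1 in each empty library. Of 5 monocyte and macrophage markers, 2 and 1 were open under Smarca4 gRNA, against 2 and 1 in empty cells. For 4 erythroid markers the counts were 3 and 2 against 3 and 2, and for 3 megakaryocyte markers 1 and 2 against 1 and 2. The monocyte, erythroid and megakaryocyte counts were thus equal in same-numbered libraries. B cell markers stood at 1 of 4 in each library (Ebf1). T cell markers stood at 1 and 0 of 4 under Smarca4 gRNA and 1 in each empty library. Stromal and endothelial markers stood at 2 and 1 of 4 under Smarca4 gRNA, against 2 and 3 in empty cells. An open start is not expression, and in a bulk library fewer cells with an open site and fewer open sites per cell cannot be told apart.

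The lost regions were the narrow ones. Their mean width in the empty libraries had a median of 283.5 bp and a highest value of 951 bp, against a median of 669 bp in the same libraries for kept regions. Of 5276 regions that were 200 to under 300 bp wide in empty cells, 46.0% were lost, and of 6613 regions of 300 to under 400 bp, 18.0%. The share was 4.04% at 400 to under 600 bp and 0.523% (44 of 8412) at 600 to under 1000 bp, and 0 of 6798 regions of 1000 bp or more were lost. Losses thus sat at the smallest open sites, and the widest sites were retained in at least 1 Smarca4 gRNA library.

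Position went with width. At gene starts 1.85% of 11917 regions were lost, against 15.2% of 13399 inside genes and 16.4% of 10717 between genes. Among regions of 200 to under 300 bp the shares were 26.9% at gene starts, 47.0% inside genes and 48.4% between genes. Lost regions were at a gene start in 5.49% of cases, gained regions in 23.7% and kept regions in 42.5%, though kept regions merge more peaks and reach a start more easily. On the X chromosome 12.9% of regions were lost, against 11.1% on the autosomes, and at equal list length the order turned, with 4.40% on X and 4.75% on the autosomes.

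Regions that overlapped both a PU.1 and an H3K4me1 island in Utx KO cells were lost least. Gene starts, where 1.85% of regions were lost, were not set apart in these classes, so overlap and position are not separated. Of 19855 regions with both, 5.04% were lost, against 12.6% of 3854 with PU.1 only, 12.3% of 4584 with H3K4me1 only and 25.5% of 7740 with neither. The order was the same at 200 to under 300 bp at its ends, with 37.3% of regions with both lost and 54.6% of those with neither. PU.1 only (41.3%) and H3K4me1 only (43.5%) lay between them. PU.1 islands overlapped 36.9% of lost, 31.1% of gained and 74.0% of kept regions. H3K4me1 islands overlapped 38.9% of lost, 48.1% of gained and 75.8% of kept regions. These islands were mapped without a Smarca4 guide in the labels, so they describe the sites and not the edited cells.

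**Figure D2:**
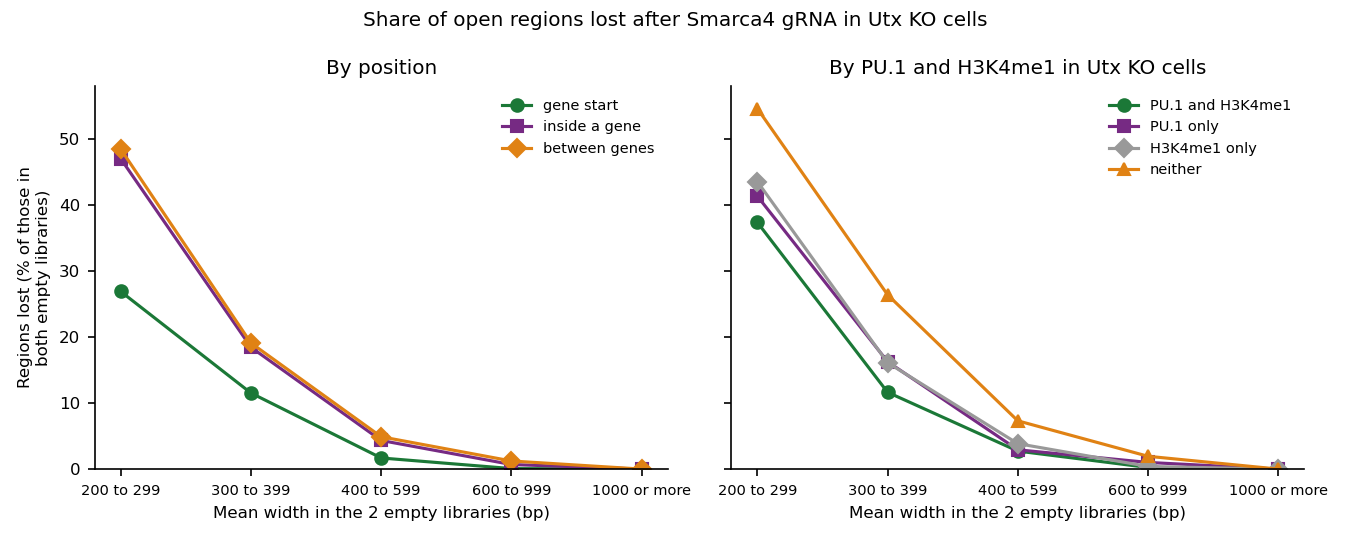
Percentage of regions lost, of those held by both empty libraries, against their mean width in the empty libraries in bp, by position (left) and by overlap with PU.1 and H3K4me1 islands of Utx KO cells (right). Every line falls with width, from 26.9% at gene starts and 54.6% of regions with neither mark at 200 to under 300 bp, to 0 at 1000 bp or more.

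When each list was cut to its widest 29930 intervals, the length of the shortest list, losses and gains came closer together. At equal length 1268 regions were lost, 4.73% of 26803, and 715 were gained, 2.81% of 25410, while 23522 were kept. The log2 ratio of lost to gained was 4.90 in whole lists and 0.83 at equal length. The smallest interval left was 279 and 200 bp in the Smarca4 gRNA libraries, against 324 bp in each empty library. A region called lost or gained at equal length can therefore hold a narrower peak that the cut removed. In whole lists only 135 regions held by both Smarca4 gRNA libraries had no peak in either empty library. Of the 4022 regions lost in whole lists, 2311 (57.5%) were under 324 bp in both empty libraries, and 665 (16.5%) were 324 bp or more in both. Of the kept regions, 3.18% were under 324 bp in both. Lost regions at equal length were at gene starts in 6.70% of cases, gained ones in 20.8% and kept ones in 45.6%. PU.1 islands then overlapped 41.9% of lost, 51.5% of gained and 76.3% of kept regions, so lost and gained regions changed order.

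Width itself did not change detectably where all 4 libraries had a peak. Over the 26176 kept regions limma on log2 covered width, centred on each library's median, called 0 narrower and 0 wider at an adjusted p under 0.05 (0% each; lowest adjusted p = 0.142). At an unadjusted p under 0.05, limma gave 1785 narrower and 673 wider regions, 9.39% together. Before centring, kept regions had a median width of 659 and 570 bp under Smarca4 gRNA, against 670 and 667 bp in empty cells, and the median log2 difference was -0.10. After centring, the median log2 difference was 0.08 at gene starts and -0.04 elsewhere, and 0.04 with and -0.06 without a PU.1 island.

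Utx WT libraries, which took no part in choosing the regions, gave a separate view of the same sites. Of the 4022 regions lost in Utx KO cells, 54.0 and 60.4% were open in the Utx WT Smarca4 gRNA libraries, against 75.2 and 79.6% in the Utx WT empty libraries. The means were 57.2 ± 4.50% under Smarca4 gRNA and 77.4 ± 3.13% in empty cells (SD, n = 2 each), a difference of -20.2 percentage points (two-sided exact permutation p = 0.333, the smallest possible). Regions held by both Utx KO empty libraries but not lost were open in 93.9 and 95.6% of cases under Smarca4 gRNA, against 96.6 and 97.4% in empty cells, a difference of -2.26 points. Within bins of width the difference for lost regions was -21.8 points at 200 to under 300 bp, -18.1 at 300 to under 400 bp and -16.5 at 400 to under 600 bp. Regions of the same widths that were not lost differed by -8.53, -5.25 and -1.93 points. At equal list length the regions then called lost were open in 45.3 and 44.1% of cases under Smarca4 gRNA, against 51.7 and 58.6% in empty cells, a difference of -10.4 points.

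Gained regions behaved differently between whole and trimmed lists. The 135 regions gained in Utx KO cells were open in 51.9 and 60% of cases in Utx WT Smarca4 gRNA libraries, against 58.5 and 57.0% in Utx WT empty libraries, and these groups overlapped (exact permutation p = 1). At equal length the 715 gained regions were open in 39.7 and 36.8% of cases under Smarca4 gRNA, against 25.2 and 26.3% in empty cells, a difference of 12.5 points (exact permutation p = 0.333). Regions gained at equal length can have a narrower peak in the whole empty lists. The Utx WT lists were cut as well, and a site not counted as open there can hold a narrower peak. The part of these cuts in the 12.5 points was not tested. A share of 10.6% of the lost regions (427 of 4022) met the same rule for loss in Utx WT cells, against 1.12% of the regions held by both Utx KO empty libraries and not lost. Of the 3562 regions lost in Utx WT cells, 11.9% (424) were lost in Utx KO cells. Only 788 of the 3562 were held by both Utx KO empty libraries and could meet the rule, and the 424 were 53.8% of these, against 11.2% over all regions so held. Neither this comparison nor that of 10.6% with 1.12% was matched for width. Of regions 200 to under 300 bp wide in Utx KO empty cells, 46.0% were lost. In turn 43.1% of the lost regions (1733) were open in all 4 Utx WT libraries, and 13.1% (528) in none of them. The same shares were not computed for regions that were not lost. Neither Utx WT empty library held 14.9% of the lost regions (601). Of the regions held by both Utx KO empty libraries and not lost, this was so for 1.67% (536 of 32011), again not matched for width.

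**Figure D3:**
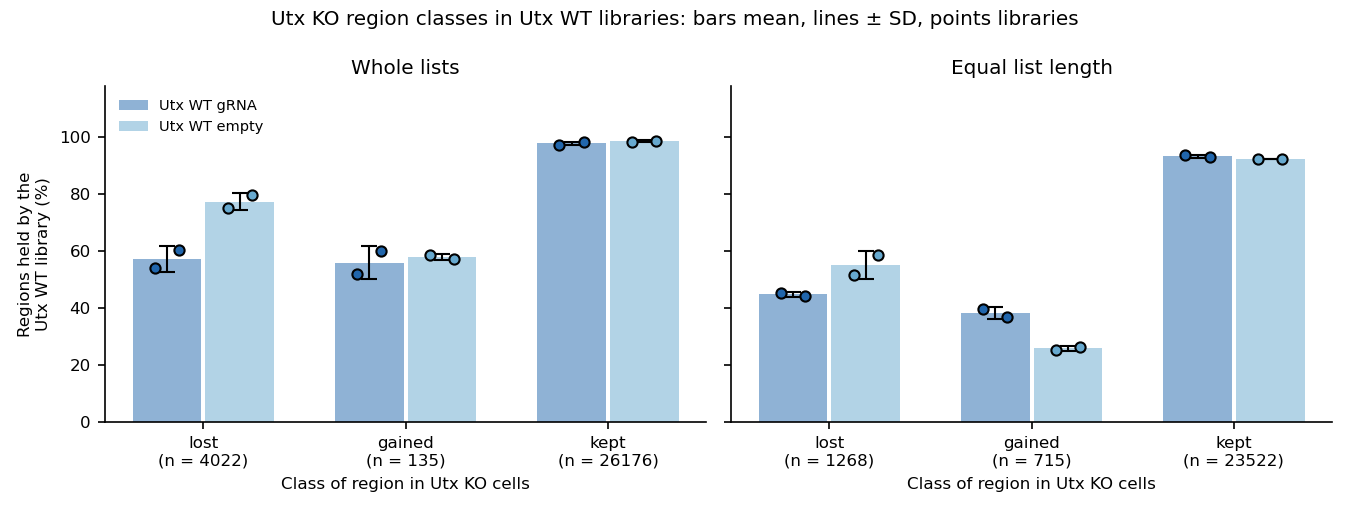
Percentage of the regions lost, gained or kept in Utx KO cells that each Utx WT library also held, for whole lists (left) and equal list length (right); bars are means, lines ± SD and points libraries. Lost regions were open in 54.0 and 60.4% of cases under Smarca4 gRNA, against 75.2 and 79.6% in empty cells, and kept regions stood near the top in all 4 libraries.

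The guide's effect on whole lists was not shown to differ between the genotypes. The change in peak number was -7798 in Utx KO cells and -6783 in Utx WT cells, a difference of -1015 (exact permutation p = 1). That difference was 2281 when both Utx KO libraries numbered 2 were left out and 1032 when both Utx WT libraries numbered 2 were, so its sign rests on such a set of libraries. Covered length changed by -4.01 Mb in Utx KO cells and -2.61 Mb in Utx WT cells (exact permutation p = 1), and this difference also turned positive, to 0.713 Mb, without the Utx KO libraries numbered 2. The share of peaks at gene starts changed by 5.99 points in Utx KO cells and 2.67 points in Utx WT cells (exact permutation p = 0.333). By the same rule 8.2% of the 43455 regions held by both Utx WT empty libraries were lost.

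BAF genes lost a share of their sites near that over all genes, and other remodellers and Utx partners a lower one. Counts at a single gene are given below out of all of its regions, and shares of a list out of the regions that both empty libraries held. A gene's regions are those nearest to it at any distance, so some lie far away. Lost regions counted below lay 1063302 bp from Bcl11a, 1114246 bp from Gata3 and 814012 bp from Myc. Smarca4 had 2 regions. Its start region, chr9:21615578-21616844 (mm10), was kept, with widths of 1235 and 1236 bp under Smarca4 gRNA, against 1115 and 1176 bp in empty cells. The other, chr9:21609972-21610240, lies 5865 bp outside the gene and was lost, with 269 and 233 bp in the empty libraries, yet 247 to 269 bp were covered in all 4 Utx WT libraries. Peak lists cannot show the edit of the coding sequence or the Brg1 protein, so they do not check the knockout. Smarca2 had 8 regions, of which 2 were lost. The wider, chr19:26822105-26822882, lies 43783 bp outside the gene and had 778 and 565 bp in empty cells. It was open in the Utx WT libraries too, over 515 and 713 bp under Smarca4 gRNA, against 555 and 605 bp in empty cells. Kdm6a itself had 5 regions and lost 0, and its start region measured 2712 and 2727 bp under Smarca4 gRNA, against 2726 and 2800 bp in empty cells. Over 30 BAF genes, 12 of 92 regions held by both empty libraries were lost (13.04%, against 11.2% over all genes). Arid1b, an ARID subunit of canonical BAF, lost 4 of 24 regions, and Bcl11a, a zinc-finger factor associated with BAF, lost 3 of 18. Other remodellers and Utx partners lost 4 of 80 (5.00%), 1 each at Ezh2, Eed, Kmt2c and Mta3. Regions of this list were also wider in empty cells, with a median of 651.5 bp, against 523 bp over all genes. BAF regions had a median of 520 bp. The part of width in these shares was not tested.

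None of the sites at Spi1, Gata2 or Gata1, genes of the ETS and GATA programs that the study addresses, was lost. The same held for 11808 of the 14796 genes nearest to any region. Both empty libraries held only 4 regions at Spi1, 5 at Gata2 and 2 at Gata1. Spi1, which encodes PU.1, had 4 regions and lost 0, and its widest region, chr2:91096438-91098709, measured 2272 and 1270 bp under Smarca4 gRNA, against 2156 and 1776 bp in empty cells. Gata2, a GATA factor of stem cells and mast cells, had 7 regions and lost 0. Its main block, chr6:88196067-88204226, measured 8089 and 6105 bp under Smarca4 gRNA, against 7547 and 6976 bp in empty cells, so the groups overlapped. Gata1, the erythroid and mast cell GATA factor, had 3 regions and lost 0. The ETS family list lost 10 of 129 regions (7.75%), with 3 of 9 at Elk3, 2 of 16 at Ets1 and 2 of 7 at Ehf. GATA factors and partners lost 11 of 122 (9.02%), with 3 of 47 at Runx1, 2 of 18 at Gata3 and 2 of 5 at Zfpm2, which encodes the GATA cofactor Fog2. A lost site 14252 bp outside Elk3, chr10:93325412-93326217, was among the 5 widest lost regions. It measured 788 and 765 bp in empty cells and was open over 755 to 806 bp in all 4 Utx WT libraries.

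Stem and progenitor regulators lost 24 of 207 regions (11.6%), close to the share over all genes. Mecom, which encodes the stem cell factor Evi1, lost 4 of 19 regions, and Myb, a regulator of progenitor growth, lost 2 of 7. The wider Myb site, chr10:21153501-21153987, measured 386 and 487 bp in empty cells. In Utx WT cells 413 and 426 bp of it were covered under Smarca4 gRNA, against 487 and 466 bp in empty cells. Mycn lost 2 of 5 regions, the wider with 557 and 686 bp in empty cells (chr12:12686887-12687572). Kit, the stem cell factor receptor, lost 2 of 34 regions and gained 1, and Myc lost 1 of 24. In the growth and tumour suppression list 20 of 187 regions were lost (10.7%), with 4 of 18 at Cdk6, a cyclin-dependent kinase, and 4 of 13 at Cdkn2b, an inhibitor of it. The AP-1 and immediate early list lost 9 of 112 (8.04%), with 3 of 18 at Jun.

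The highest shares among the 16 lists were those of erythroid, B cell, stromal and monocyte genes. Erythroid genes lost 7 of 31 regions (22.6%), B cell genes 8 of 38 (21.1%), stromal and endothelial genes 9 of 44 (20.5%) and monocyte and macrophage genes 18 of 102 (17.6%). The median width in empty cells was 392 bp for erythroid, 395 bp for B cell, 436 bp for stromal and 446 bp for monocyte regions, against 523 bp over all genes. Granulocyte regions, at 434.5 bp, were about as narrow, whereas mast cell and basophil regions (527 bp) and megakaryocyte regions (565.5 bp) were not narrower than regions over all genes. T and NK cell genes lost 4 of 28 (14.3%), megakaryocyte genes 7 of 56 (12.5%), mast cell and basophil genes 14 of 138 (10.1%), housekeeping genes 5 of 53 (9.43%) and granulocyte genes 1 of 23 (4.35%). Among erythroid genes Car2, a carbonic anhydrase, and Tfrc, the transferrin receptor, each lost 2 of 4. F13a1, a coagulation factor subunit of monocytes, lost both of its regions. The wider, chr13:36964686-36965013, measured 328 and 259 bp in empty cells. In Utx WT cells it was covered over 218 and 210 bp under Smarca4 gRNA, against 328 and 305 bp in empty cells. Maf, a macrophage factor, lost 4 of 12, and among B cell genes Foxo1, a forkhead factor, lost 3 of 17 and Bank1, an adaptor of B cell receptor signalling, 2 of 6. S100a8, a granulocyte gene, lost its single region, of 483 and 367 bp in empty cells. At equal length the shares were 5.88% for erythroid, 4.35% for B cell, 3.85% for stromal and 8.22% for monocyte genes, against 4.74% over all genes. Stem and progenitor genes then stood at 7.84%, and granulocyte genes at 7.14% (1 of 14).

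**Figure D4:**
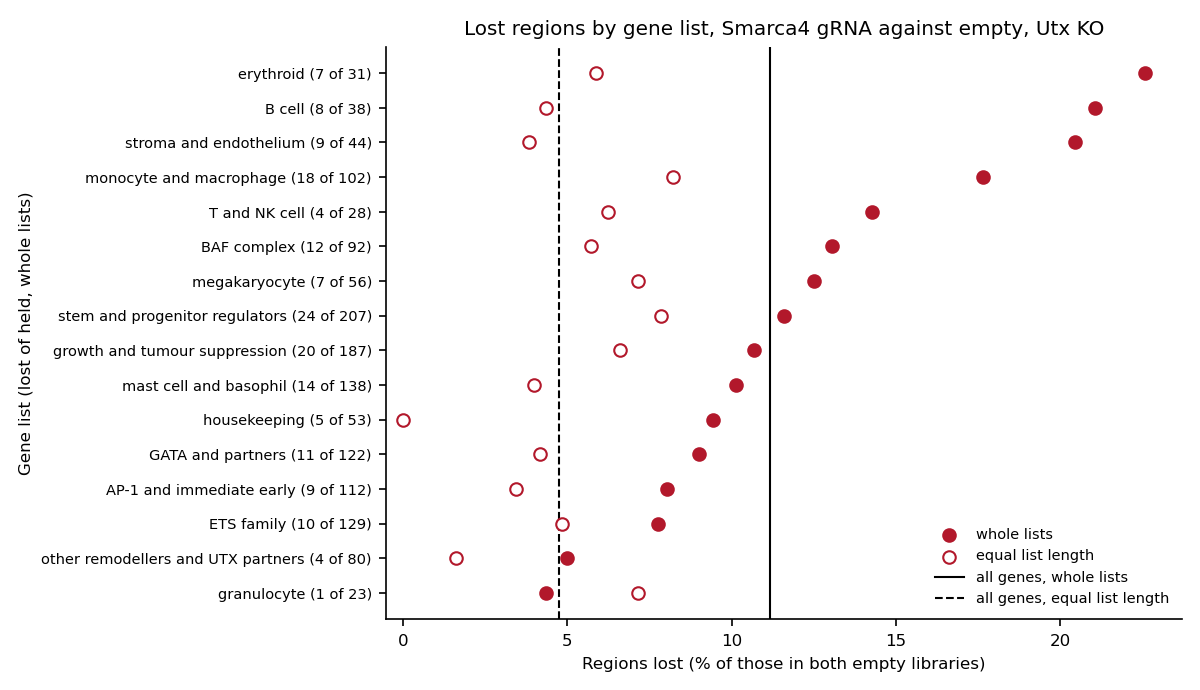
Percentage of regions lost, of those held by both empty libraries, for 16 gene lists in Utx KO cells, in whole lists (filled) and at equal list length (open); lines mark all genes at 11.2% (solid) and 4.74% (dashed). Erythroid genes stand at 22.6% in whole lists and at 5.88% at equal length, near the dashed line.

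Losses were spread thinly over the genome, with at least 1 at 2988 of the 14796 genes nearest to any region, and 5 or more at 28 genes. Auts2, which encodes a partner of Polycomb complexes, had the most. Of its 26 regions the Smarca4 gRNA libraries held 13 and 11, against 23 and 23 in the empty libraries, and 9 were lost. The 9 were 200 to 397 bp wide in the first empty library, and 2 of them overlapped a PU.1 island and 0 an H3K4me1 island. Utx WT libraries held 13 and 16 of the 26 under Smarca4 gRNA, against 15 and 18 in empty cells, so these groups overlapped. Tmtc2, a mannosyltransferase of the endoplasmic reticulum, lost 8 of 26 regions, with 13 and 13 held under Smarca4 gRNA, against 23 and 26 in empty cells. The Utx WT counts for Tmtc2 were 16 and 17 under Smarca4 gRNA, against 15 and 18 in empty cells.

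Tox, an HMG-box factor known from T cell development, lost 6 of 12 regions. The Smarca4 gRNA libraries held 6 and 4 of them, against all 12 in each empty library, and the Utx WT libraries held 6 and 6 under Smarca4 gRNA, against 9 and 9 in empty cells. The Utx KO counts at Tox show the choice of the gene. Its Utx WT counts were lower with the guide too, while whole Utx WT lists were also shorter with it. The share of all genes with such Utx WT counts was not computed. Zfp36l1, a protein that binds AU-rich messages and promotes their decay, lost 5 of 9 regions. The Smarca4 gRNA libraries held 3 and 1, against 7 and 8 in empty cells, whereas Utx WT libraries held 8 and 9 under Smarca4 gRNA, against 9 and 9 in empty cells. The widest of its lost sites, chr12:80060024-80060682, measured 598 and 369 bp in Utx KO empty cells, overlapped PU.1 and H3K4me1 islands, and was covered over 659 bp in each of the 4 Utx WT libraries. Whether the guide's effect at Zfp36l1 differs between genotypes was not tested. Hs6st1, a heparan sulfate sulfotransferase, lost 7 of 29 regions, Nos1ap, an adaptor of nitric oxide synthase, 6 of 16, and Fhit, a gene at a fragile site, 6 of 27. Tmeff2, Cenpc1 and Gm11677 lost 5 each, of 12, 13 and 13. At equal list length, where regions are built anew, Nos1ap had 3 lost regions and each of the other 9 genes 0 or 1.

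**Figure D5:**
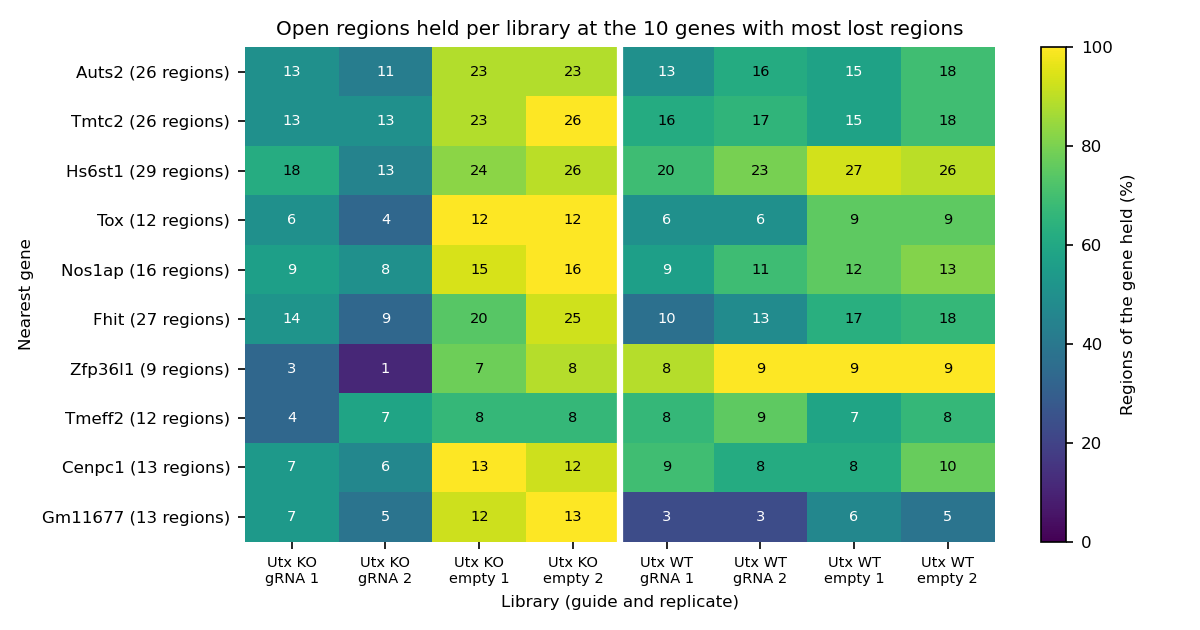
Number of regions held by each library (figures in the cells) and their percentage of the gene's regions (colour) at the 10 genes with most lost regions, for Utx KO libraries (left) and Utx WT libraries (right). At Tox 6 and 4 of 12 regions were held under Smarca4 gRNA, against 12 and 12 in empty cells; these genes were chosen on the Utx KO columns, which therefore show the choice.

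The widest lost regions were open in Utx WT cells. The widest, in Atg7, an autophagy gene (chr6:114690728-114691844), measured 1117 and 785 bp in Utx KO empty cells, and 628 and 688 bp were covered in Utx WT cells under Smarca4 gRNA, against 1117 and 1022 bp in empty cells. A region 202453 bp from Satb1, a chromatin organiser gene (chr17:52035744-52036618), measured 875 and 746 bp in Utx KO empty cells and was covered over 875 bp in each Utx WT library. A region in Cmc2, a mitochondrial gene (chr8:116905321-116906186), measured 810 and 826 bp in Utx KO empty cells, and 801 and 802 bp were covered in Utx WT cells under Smarca4 gRNA, against 775 and 866 bp in empty cells. Only 44 lost regions, 1.09%, reached 600 bp on average in the empty libraries. Of these 44, 79.5 and 72.7% were open in the Utx WT Smarca4 gRNA libraries, against 86.4 and 97.7% in the Utx WT empty libraries. Regions of 600 to under 1000 bp held by both Utx KO empty libraries and not lost were open more often. Their shares were 98.9 and 99.3% under Smarca4 gRNA, against 99.2 and 99.6% in empty cells.

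Gains were few and mostly single. Of 14796 genes 128 had a gained region, and Mgat1, Cntn4 and Trpm8 had 2 each. At Trpm8, a cold-sensing channel, the Smarca4 gRNA libraries held 5 and 11 of 11 regions, against 4 and 1 in empty cells. The wider gained site near it, chr1:88298064-88299099, measured 506 and 1036 bp under Smarca4 gRNA and had no peak in Utx KO empty cells. In Utx WT cells 468 and 759 bp of it were covered under Smarca4 gRNA, against 0 and 0 bp in empty cells, so the site was open with the guide and closed without it in both genotypes. Only 5 of the 135 gained regions (3.70%) had this pattern in Utx WT cells. Among regions joined from the Utx WT lists alone, 530 of the 37398 held by both Smarca4 gRNA libraries (1.42%) had it. Of the 135 gained regions, 49 (36.3%) were open in all 4 Utx WT libraries. Each Utx WT library held 97.4 to 98.8% of the kept regions, and their share open in all 4 was not computed. Mgat1, an enzyme of N-glycan synthesis, held 4 and 4 of 5 regions under Smarca4 gRNA, against 2 and 3 in empty cells, and all 5 were held by every Utx WT library. Bdnf, a neurotrophin gene, had the gained region that was widest on average, at a gene start (chr2:109693418-109694382), with 965 and 717 bp under Smarca4 gRNA. There 0 and 965 bp were covered in Utx WT cells under Smarca4 gRNA, against 925 and 337 bp in empty cells. At the start of Fmn2, a formin gene (chr1:174502180-174503082), widths were 903 and 615 bp under Smarca4 gRNA. In Utx WT cells 475 and 710 bp were covered there under Smarca4 gRNA, against 99 and 146 bp in empty cells.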

How the data were processed

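ATAC peak lists of 8 libraries (Utx KO and WT, Smarca4 gRNA and empty) and PU.1 and H3K4me1 lists of 3 and 2 Utx KO libraries were used. The authors deposited 1 list per library. The submitters' processing notes name Bowtie, Bowtie2, SICER and MACS2 and the build mm10, without roles or versions. Thresholds are not given in the sources used here. The deposited ATAC lists hold intervals of at least 200 bp with no other value, so depth is unknown and width is the only graded measure. The deposited PU.1 and H3K4me1 lists add a whole number of unstated role, treated as a score and used for no result printed. A site counts as PU.1 where islands of all 3 PU.1 libraries overlap it, and as H3K4me1 where islands of both H3K4me1 libraries do.

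Regions were assigned to the nearest RefSeq gene span (GRCm38.p6, 21887 coding genes), with no limit of distance. Starts were listed for 17492 (79.9%), and either gene end served for the others. A region within 1 kb of a start counts as at a gene start. Covered width is the sum of bases that a library's peaks cover in a region. At equal length each list kept its widest 29930 intervals. Kept widths were tested with limma 3.58.1 (R 4.3.3), with Benjamini-Hochberg adjustment. Library values were set against each other with exact permutation tests, two-sided. Scripts used Python 3.11.15, numpy 2.4.6 and pandas 2.3.3, and were tested on simulated data. Genes were named by rule: Smarca4, Smarca2, Kdm6a, Spi1, Gata2, Gata1, Runx1, Myc and Kit, the top 10 by lost and the top 10 by gained regions, up to 4 of each list by losses and up to 2 by gains, the 5 widest lost and gained regions, called kept regions (there were none) and the promoters in the widest regions. Some genes that this rule picks are left out of the text. The members, the 16 lists (362 genes matched) and the tests were chosen with earlier results of these data known, and alternatives for the Utx WT and genotype results were added after seeing the data. Same-numbered libraries did not deviate together in width (correlation 0.041, 2 pairs), so the tests within Utx KO cells used no block. The genotype comparison alone took guide minus empty within same-numbered libraries; its mean does not depend on that pairing, while its p and left-out values do. Alternatives were equal length, other width and start cuts, autosomes, 50% cover, uncentred and loess-scaled widths, and each library left out.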

Additional observations from a re-analysis of the deposited data

How the results depend on the processing

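Peak number, covered length and the share of peaks at gene starts kept their direction in each alternative that gave a value, though their sizes did not all hold: the share at gene starts differed by 0.673 points at equal length. Equal length gives no value for peak number. The median peak width difference turned to -61 bp at equal length. Lost regions numbered 1268 at equal length, 1794 among intervals of at least the median width and 4420 to 9503 with each library left out. Gained regions numbered 715, 54 and 319 to 1844 in the same settings, and kept regions 13991 among the wider intervals. With the replicate block, same-numbered pairs lost 7192 and 13369 and gained 2721 and 2120. Narrower kept regions numbered 0 to 28, and wider ones 0 to 21, with each library left out, the highest counts without empty replicate 2. The Utx WT difference at gained regions was 12.5 points at equal length, 0.370 points at 50% cover and -5.93 to 2.22 points with each library left out. The genotype difference ranged from -4311 to 2281 peaks, -3.50 to 0.713 Mb covered and -37 to 25 bp of median width with a same-numbered pair left out. At single genes and lists 85 values moved by over 1.5 times and 123 did not. Unless the construction shows it, the cause was not tested. The main limits are unknown depth, 2 libraries a group, 1 guide, and no count or score per ATAC peak.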
